A study of Mus musculus with 3 samples.

Results

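The adhesion molecules that white cells use to stop on a vessel wall were examined in endothelial cells of the embryonic kidney. The set holds 6 genes, Icam1, Icam2, Vcam1, Madcam1, Sele and Selplg, of 19938 named genes on the array. Each was taken as the probe sets whose platform annotation gives its symbol and no other, and each had 1 probe set. The set was chosen for what its genes do, with earlier results of these data known. GFP-positive cells were sorted from trypsin-dissociated kidneys of Tie2-GFP transgenic mice (Tg(TIE2GFP)287Sato, strain CD-1, 15.5 dpc). No treatment, mutant or adult group was analysed here. The transgene is driven by the promoter of Tek, which is active in endothelium and also in some blood-forming cells, so a gate on GFP need not hold endothelium alone. The samples are labelled as small blood vessels. Each of the 3 arrays was made from a pool of 4 to 5 kidneys. Nothing in the labels ties a pool to a litter, so all p-values below measure the spread between these arrays only.

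White cells leave the blood in steps. Selectins on the vessel wall catch carbohydrate ligands on passing cells and make them roll, and P-selectin glycoprotein ligand, encoded by Selplg, is the main such ligand on the leukocyte side. Rolling cells are then held firmly when their integrins bind members of the immunoglobulin superfamily on endothelium, which are encoded by Icam1, Icam2, Vcam1 and Madcam1. Icam2 is known as a constitutive gene of resting endothelium, while Icam1, Vcam1 and Sele are known for their induction by inflammatory cytokines through NF-kB. Madcam1 is best known from the venules of gut and gut-associated lymphoid tissue.

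Expression values are log2 values of an Affymetrix Mouse Gene 1.0 ST array as deposited. The study kept probe sets with a raw level of at least 100 in 3 samples, and 100 is 6.64 on the log2 scale. Its values were RMA normalized in GeneSpring, so 100 there need not equal 100 in the deposited values. Here limma instead compared the mean of every probe set with that level. The test was one-sided in each direction and Benjamini-Hochberg adjusted over all 35557 probe sets. Raw-scale values below are the deposited values with the log2 undone. "Above" and "below" refer to this test. Among all probe sets, 35.5% were above the level and 41.7% below. Of the 6 adhesion genes 4 were above (Icam1, Icam2, Vcam1 and Madcam1) and 2 were below (Sele and Selplg).

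Array 3 differed from the others in ways that touch the values given here. Of 10 genes that mark endothelium 9 were above the level, with Tek at 11.12, 10.97 and 10.13 log2 in arrays 1, 2 and 3, and Eng was on neither side at 9.45, 9.08 and 7.26 (chosen after its values were seen). Without array 1 or array 2 only 3 and 1 of them passed the test. All 10 endothelial markers were lower in array 3 than in the mean of arrays 1 and 2, with a median difference of -0.95 log2. Over all named genes the median of that difference was 0.00, but it was -0.35 among 941 genes with means within 0.5 log2 of Icam2. Values in array 3 were also less spread, with an SD over all probe sets of 2.078, 2.058 and 1.842 log2 in arrays 1, 2 and 3. The 95th percentile of 1212 olfactory and vomeronasal receptor probe sets was 6.285, 6.4 and 6.674 log2. The part of this narrower spread in the marker differences was not tested. The summed raw-scale signal of the endothelial markers was 17169, 14952 and 8560 in arrays 1, 2 and 3. Of 12 macrophage markers 11 were higher in array 3 than in the mean of arrays 1 and 2, though Cd68 and Adgre1 were highest in array 2. The summed raw-scale signal of the macrophage markers was 1504, 3775 and 5781 in arrays 1, 2 and 3, so array 1 also differed from array 2. The sum over 4 measured platelet markers was 895, 925 and 1905, most of it from the platelet factor gene Pf4 at 9.27, 9.34 and 10.63 log2. In a bulk sample fewer cells of a type and less RNA per cell cannot be told apart. Exactly equal values in arrays 1 and 2 were found for 50.6% of all probe sets, and in all 3 arrays for 19.7%. Among the adhesion genes, Madcam1 and Selplg had 1 value in all 3 arrays, Icam1, Vcam1 and Sele had an equal value in 2 arrays, and Icam2 had 3 different values. The moderated SD of a gene with equal values is very small (0.00657 log2 for Madcam1 and Selplg, against a median of 0.177 over all probe sets), and calls close to the level rest on it. Each call was therefore repeated with a single spread of 0.491 log2 pooled over all probe sets. The p-values of that test do not rest on a gene's own spread. It uses the degrees of freedom of all probe sets together, as if they were independent. For a gene with a moderated SD over 0.491 log2 it is more lenient than limma.

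Of the 6 genes, Icam2 stood farthest over the filter level. It encodes the intercellular adhesion molecule that binds the leukocyte integrin LFA-1 without prior stimulation of the vessel. Its values were 10.18, 9.94 and 8.99 log2 in arrays 1, 2 and 3, which are 1160, 982 and 509 on the raw scale. All 3 arrays were well over the filter level, and array 3 was the lowest. The mean was 9.70 ± 0.63 log2 (SD, n = 3), 3.06 log2 or 8.34-fold over the level (adjusted p = 0.0113, limma). Within each array Icam2 ranked above 95.5%, 94.8% and 92.0% of named genes. It also exceeded 99.9% or more of the 1212 probe sets for olfactory and vomeronasal receptors, genes taken as a background of little or no transcript. Probe sets differ in affinity, so these ranks describe the array signal and not transcript numbers. The call was kept with the pooled spread, but that spread of 0.491 log2 is under the SD of Icam2, so this was not a stricter test. With arrays 2 and 3 only or arrays 1 and 3 only it was not past the threshold (adjusted p = 0.0802 and 0.0987, limma), although the mean was then still 2.82 and 2.94 log2 over the level.

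**Figure D1:**
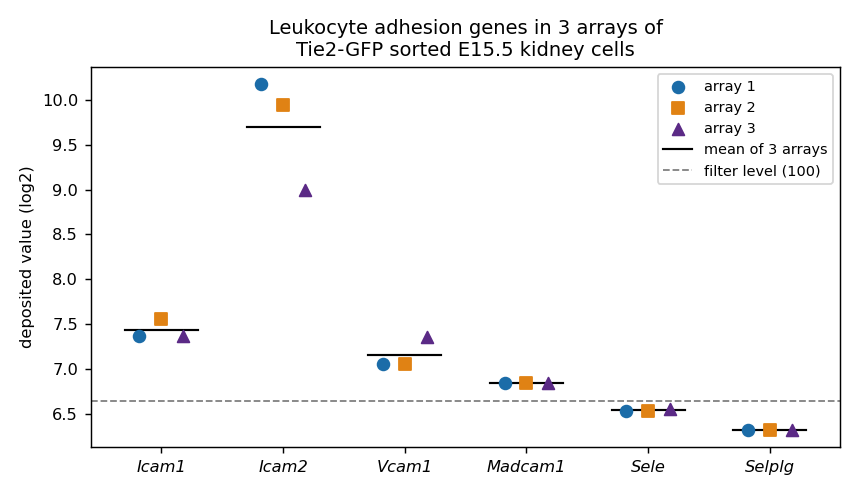
Deposited log2 values of the 6 adhesion genes (x axis) in arrays 1 (circles), 2 (squares) and 3 (triangles), with the mean of the 3 arrays as a black bar and the filter level of 100 (6.64 log2) as a dashed line. Icam2 lies between 8.99 and 10.18, the other 5 genes lie between 6.32 and 7.55, and Sele and Selplg are under the line in all 3 arrays.

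The other integrin ligands were much closer to the level. Icam1, which encodes the inducible ligand of LFA-1 and Mac-1, was at 7.37, 7.55 and 7.37 log2 in arrays 1, 2 and 3. Its mean of 7.43 ± 0.10 (SD, n = 3) was 1.72-fold over the level (adjusted p = 0.00493, limma, and 0.0094 with the pooled spread). Without array 1 or without array 3 the adjusted p was 0.0533 and 0.0827. Vcam1, the ligand of integrins that hold the Itga4 subunit, was at 7.05, 7.05 and 7.35 log2, with array 3 the highest. Its mean of 7.15 ± 0.17 (SD, n = 3) was 1.42-fold over the level (adjusted p = 0.0308, limma), which was lost with the pooled spread (adjusted p = 0.105) and without array 1 or array 2 (0.131 and 0.133 by limma). Madcam1, the ligand of the integrin of Itga4 and Itgb7, was at 6.84 log2 in all 3 arrays (SD 0.00, n = 3). That is 1.15-fold over the level, and the call above it (adjusted p = 0.000419, limma) was lost with the pooled spread (adjusted p = 0.58). Icam1 and Vcam1 ranked above 68.9% and 62.6% of named genes by their means, and Madcam1 above 54.7%, close to the middle of the array.

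The genes of the selectin step lay at or under the level. Sele, which encodes E-selectin of activated endothelium, was at 6.53, 6.53 and 6.55 log2 in arrays 1, 2 and 3. All 3 values were under the level, at 92.6 to 93.4 on the raw scale, and the mean of 6.54 ± 0.01 (SD, n = 3) was below it (adjusted p = 0.0026, limma). The distance of 0.11 log2 was not past the threshold with the pooled spread (adjusted p = 0.698). Selplg was at 6.32 log2 in all 3 arrays (SD 0.00, n = 3), or 79.9 on the raw scale, and was below the level (adjusted p = 0.000136, limma, and 0.28 with the pooled spread). Sele ranked above 46.6% of named genes and Selplg above 40.4%. Even so, Sele exceeded 93.6% to 96.6% of the receptor background in the single arrays and Selplg 90.3% to 95.2%, so that both lay in the upper tail of that background. A value under the filter level does not show that a transcript was absent. The level of no gene was tested against that of another, since each is read by a different probe set.

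**Figure D2:**
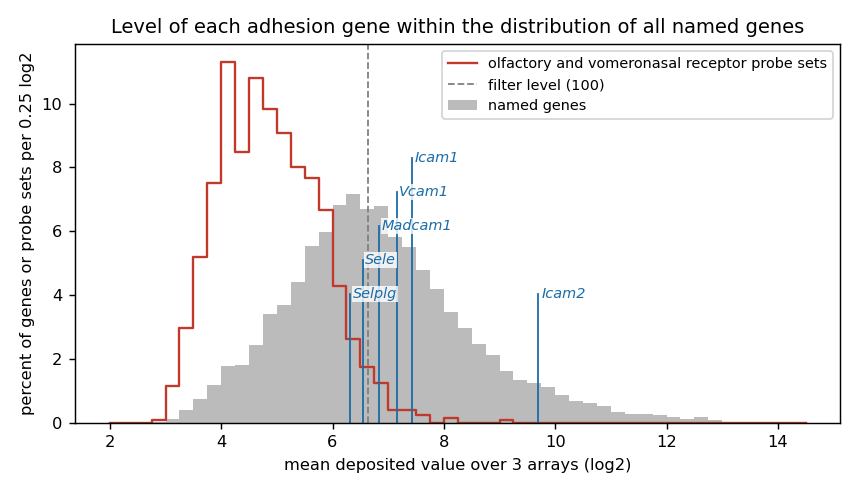
Percent of 19938 named genes (grey bars) and of 1212 olfactory and vomeronasal receptor probe sets (red outline) per 0.25 log2 of the mean value over 3 arrays, with the mean of each adhesion gene as a blue line and the filter level as a dashed line. Icam2 at 9.70 stands in the right tail, and the other 5 genes stand between 6.32 and 7.43, near the middle of the named genes.

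The stretch of 250 bases before the annotated start was read for 3 of the 6 genes, Icam1, Madcam1 and Sele, which have an entry in the RefSeq promoter table (GRCm38.p6). The other genes of the set had no entry there. Cytokine induction of Icam1 and Sele is known to act through sites close to the start. Both strands were searched for an NF-kB-like motif (GGNNNTTCC) and a STAT-like motif (TTCNNNGAA). They were also searched for an ETS-like motif, spelled CAGGAA, for which factors such as the endothelial regulator Erg are known. The last motifs were a GATA-like one, spelled GATAAG after the family of zinc finger factors that includes an endothelial member, and the TATA box, the core promoter element spelled TATAAA. Capitals mark every match. Icam1 is at chr9:21015690-21015939, Madcam1 at chr10:79664309-79664558 and Sele at chr1:164047984-164048233, all on the plus strand.
Icam1: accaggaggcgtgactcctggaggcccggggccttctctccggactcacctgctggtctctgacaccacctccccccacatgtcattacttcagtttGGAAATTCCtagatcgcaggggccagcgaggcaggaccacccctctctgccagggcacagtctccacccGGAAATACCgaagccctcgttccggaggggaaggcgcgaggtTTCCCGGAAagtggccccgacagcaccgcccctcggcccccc
Madcam1: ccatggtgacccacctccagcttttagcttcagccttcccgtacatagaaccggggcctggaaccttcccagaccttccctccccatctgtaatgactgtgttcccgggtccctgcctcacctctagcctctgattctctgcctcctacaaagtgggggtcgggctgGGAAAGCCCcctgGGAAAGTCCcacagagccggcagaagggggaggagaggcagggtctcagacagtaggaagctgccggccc
Sele: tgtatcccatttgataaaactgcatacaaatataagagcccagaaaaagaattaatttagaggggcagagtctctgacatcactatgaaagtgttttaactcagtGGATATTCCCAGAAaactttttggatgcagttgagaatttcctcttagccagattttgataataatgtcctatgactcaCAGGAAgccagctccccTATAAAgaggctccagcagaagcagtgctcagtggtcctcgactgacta

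All 3 stretches held the NF-kB-like motif, which 15.7% of 32851 promoters of this length hold. In Icam1 the matches began 153 and 84 bases before the start (GGAAATTCC, which matches on both strands, and GGAAATACC), and a STAT-like match, found in 7.02% of promoters, began 42 bases before it. In Madcam1 both matches of the NF-kB-like motif, GGAAAGCCC and GGAAAGTCC, began 83 and 70 bases before the start. In Sele the match GGATATTCC began 145 bases before the start and overlapped a STAT-like match, and an ETS-like match (25.7% of promoters) and a TATA box (12.4%) began 66 and 49 bases before it. No GATA-like match (6.55% of promoters) was in any of the 3 windows. A match is a run of letters and not a shown binding site, and the motifs were picked with the known regulation of such genes in mind.

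Of the 6 genes, Icam2 had the largest difference between arrays, and it had the direction seen in the endothelial markers. Array 3 minus the mean of arrays 1 and 2 was -1.07 log2 for Icam2 (-0.67 after quantile normalization). Over the 10 endothelial markers it ran from -2.0 to -0.57. It was -1.61 for Kdr, -1.35 for Flt1, -1.03 for the adhesion molecule Pecam1, -0.97 for VE-cadherin Cdh5 and -0.91 each for Tek and Tie1. Among 941 genes whose mean lay within 0.5 log2 of that of Icam2 the median of this difference was -0.35, with quartiles of -0.78 and -0.03, and 13.8% of them differed more strongly downward. The same difference was -0.09 log2 for Icam1, 0.01 for Sele, 0.00 for Madcam1 and Selplg, and 0.30 for Vcam1. By Euclidean distance between the deviations from each gene's own mean over 3 arrays, the 3 of 10097 genes most like Icam2 were the ETS factor Erg (distance 0.00584 log2), Hbs1l (0.0137) and Sephs1 (0.0178). With only 3 arrays such likeness is common, and 2249 genes were within 0.5 log2 of Icam2 by this measure, among them Pecam1 (0.0896), Cdh5 (0.11), Tie1 (0.135), Tek (0.138), Flt1 (0.323) and Kdr (0.483). The endothelial marker Eng was not, at a distance of 0.767. These differences between arrays are a description, and the part of endothelial content in the values of Icam2 was not tested.

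Selplg, a gene of the leukocyte side, was read beside markers of white cells. Among pan-leukocyte markers, Ptprc, which encodes the common antigen of white cells, was at 5.96, 6.06 and 6.88 log2 in arrays 1, 2 and 3, and the tetraspanin gene Cd53 at 5.71, 7.37 and 9.20. Laptm5, which encodes a lysosomal protein, was below the level at 6.51 in all 3 arrays, and the actin-binding coronin gene Coro1a was above it at 7.02, 7.02 and 7.05. The list thus held both genes that differed between arrays and genes that hardly did. Of the whole list of 6, 1 lay above the level and 2 below, and 5 were higher in array 3 than the mean of arrays 1 and 2. Their summed raw-scale signal was 433, 581 and 1086 in arrays 1, 2 and 3, and Cd53 had the largest difference between arrays among them. The macrophage genes Csf1r (6.45, 6.98 and 7.41), Cd68 (7.30, 8.95 and 8.82) and Fcgr1 (6.57, 7.06 and 7.89) were all lowest in array 1, and Adgre1 (5.62, 6.74 and 6.42) was as well. Among the 12 macrophage markers 2 lay above the level (0 without array 2 or array 3) and none below. With the pooled spread 8 were above, but that spread is smaller than the SD of several of these markers, so the test is lenient for them. Selplg had the same value of 6.32 in all 3 arrays, as Laptm5 had its own. Neutrophil markers lay below in 5 of 7 cases, S100a8 at 4.64 ± 0.38 and Ly6g at 4.59 ± 0.06 among them, while S100a9 at 5.67 ± 0.85 and Mpo at 6.57 ± 0.28 were on neither side (SD, n = 3). Without array 1 or array 2 the count below was 3 and 2. Lymphoid markers lay below in 3 of 5 cases (2 without array 1 or array 2, and 5 without array 3), with Cd3g at 5.28 ± 0.31, Cd79a at 4.65 ± 0.00 and Ms4a1 at 4.42 ± 0.07, and Cd3e at 6.70 ± 0.14 was on neither side. Neither list had a gene above. Over all named genes 41.6% lay above and 41.6% below, and with so few genes per list these marker counts are a description only. Of the platelet markers Pf4 was above, Gp9 at 6.44 ± 0.09 and Ppbp at 6.29 ± 0.10 were below, and Itga2b at 6.96 ± 0.27 was on neither side, and no call was left without array 1 or array 2. The summed raw-scale signal of the neutrophil markers was 274, 276 and 404 in arrays 1, 2 and 3, and that of the lymphoid markers 239, 241 and 312. Most of these genes were under the 95th percentile of the receptor background, which was itself 6.285, 6.4 and 6.674 log2 in arrays 1, 2 and 3. The part of that background shift in the sums was not tested. The part of white cells in the level of any adhesion gene was not tested.

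**Figure D3:**
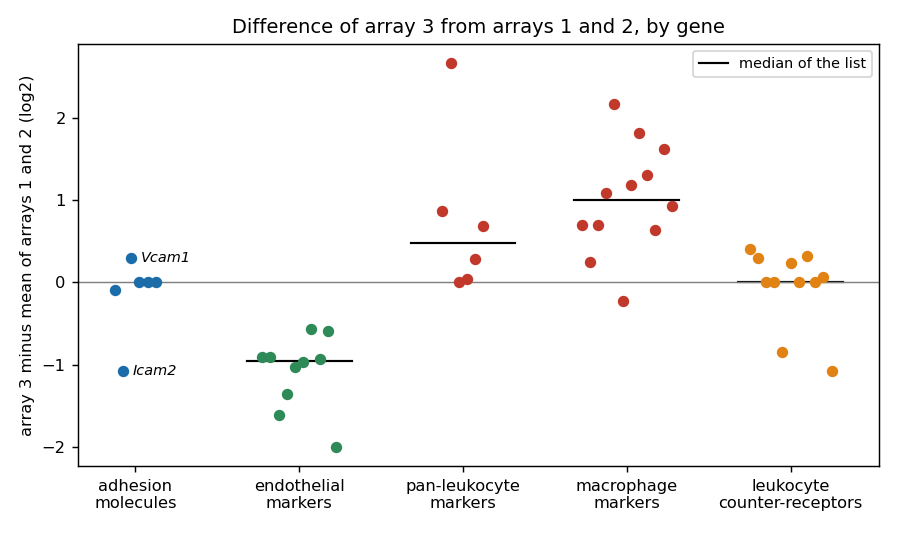
Array 3 minus the mean of arrays 1 and 2 (y axis, log2), 1 point per gene, for the 6 adhesion molecules and for the lists of endothelial, pan-leukocyte and macrophage markers and of leukocyte counter-receptors, with the median of each list as a black bar. Icam2 at -1.07 lies among the endothelial markers (median -0.95), while the macrophage markers have a median of 1.00.

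The genes for receptors that bind these molecules on leukocytes were on both sides of the level. Among 11 measured counter-receptors, 4 lay above it and 5 below (2 and 3 with the pooled spread), where 41.6% of all named genes were above and 41.6% below, so the split was near that of the array. The count above was 1 and 0 without array 1 or array 2. Itgb2, the shared beta chain of the integrins that bind Icam1 and Icam2, was below at 5.82 ± 0.00 log2, and so were its alpha chains Itgal at 6.07 ± 0.23, Itgam at 4.87 ± 0.17 and Itgax at 5.60 ± 0.00 (SD, n = 3). Itgad at 6.16 ± 0.19 was on neither side. Itga4, whose product pairs with those of Itgb1 and Itgb7 to bind Vcam1 and Madcam1, was at 6.69 log2 in all 3 arrays and above the level, though not with the pooled spread, and Itgb7 at 6.43 ± 0.14 did not pass. Itgae, which also pairs with Itgb7, was below at 6.25 ± 0.00. Itgb1, which most adherent cells use for matrix adhesion, was above at 10.91 ± 0.56, and Glg1, which encodes a Golgi sialoglycoprotein known as a ligand of E-selectin, was above at 8.81 ± 0.62. The leukocyte sialomucin gene Spn was above at 6.78 ± 0.04, again not with the pooled spread.

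Enzymes that build selectin ligands were split. Among 14 genes, 7 lay above the level and 4 below (7 and 3 with the pooled spread), not far from the 41.6% on either side over all named genes. Without array 1 the counts were 4 and 2, and without array 2 they were 5 and 2. Fut7, the fucosyltransferase needed for selectin ligands of leukocytes, was below at 6.02 ± 0.02 log2, and Gcnt1, which starts the branched O-glycans that carry them, was below at 5.98 ± 0.23 (SD, n = 3). The galactosyltransferase gene B4galt1 at 8.14 ± 0.71 and the sialyltransferase gene St3gal4 at 6.94 ± 0.49 were on neither side. Both tyrosine sulphotransferases, which modify the product of Selplg, were above, with Tpst1 at 8.05 ± 0.25 and Tpst2 at 8.13 ± 0.11 (chosen after their values were seen).

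Other adhesion and transmigration molecules of endothelium were also read. Among 22 measured genes, 13 lay above the level and 4 below (16 and 4 with the pooled spread), and 41.6% of all named genes were on either side. Without array 1 or array 2 the count above was 6 and 4. The list median was 7.86 log2 and that of all named genes 6.67, given as array signal only since probe sets differ in affinity. Pecam1, which acts in passage between endothelial cells, was at 10.09 ± 0.60 log2 and Cdh5, the cadherin of endothelial junctions, at 11.08 ± 0.59 (SD, n = 3). Esam at 7.81 ± 0.90 and Jam2 at 6.53 ± 0.38, both of endothelial tight junctions, were on neither side. Icam4 and Icam5 lie next to Icam1 in the RefSeq gene order and belong to the same family, and both were picked out after their values were seen. Icam4, known from red cells, was at 6.36, 6.36 and 7.03 log2 and on neither side, and Icam5, known from neurons, was below at 6.01 ± 0.02.

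The NF-kB pathway, which acts upstream of the inducible adhesion molecules, had 9 of 16 measured genes above the level and 3 below, beside 41.6% of named genes on either side. With the pooled spread 5 were above and 1 below, without array 1 or array 2 there were 6 above, and without array 2 there was 1 below. The inhibitor gene Nfkbia, itself a target of the pathway, was at 8.22 ± 0.02 log2 and the receptor of tumour necrosis factor, Tnfrsf1a, at 8.96 ± 0.14 (SD, n = 3). Rela at 7.71, 7.40 and 5.99 and Nfkb2 at 7.22, 7.22 and 6.78 were on neither side, both lowest in array 3. The cytokine and chemokine list had 8 of 12 genes below and 2 above (6 and 1 with the pooled spread). The count below was 4 and 5 without array 1 or array 2. Tnf at 6.32 ± 0.20 and Il1b at 6.61 ± 0.43 were on neither side, Il6 was below at 3.89 ± 0.63, and Ccl2 was above at 6.92 ± 0.00, though not with the pooled spread.

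Genes that anchor or cut these molecules were read as well. For cytoskeletal linkers, docking and shedding, 16 of 18 measured genes lay above the level and none below (17 and none with the pooled spread), and 41.6% of all named genes lay above. The count above was 7 and 6 without array 1 or array 2. The linkers ezrin (Ezr) and moesin (Msn), which tie the tails of such adhesion molecules to actin, were at 7.78 ± 0.00 and 10.00 ± 0.82 log2, cortactin (Cttn) at 8.11 ± 0.26, and the sheddase gene Adam17 at 8.58 ± 0.30 (SD, n = 3). Linker and shedding genes are used by nearly all cells and do not mark leukocyte adhesion. Markers of other kidney cells were on both sides, where 41.6% of all named genes were above and 41.6% below. Of 9 mural and stromal markers 3 were above and 5 below (2 and 3 with the pooled spread). Pdgfrb at 5.87 ± 0.00, Rgs5 at 5.89 ± 0.00 and Cspg4 at 6.17 ± 0.00 were below, Pdgfra at 6.41 ± 0.32 was on neither side (SD, n = 3), and those above were Acta2 at 7.21 and Col1a1 at 7.58 in all 3 arrays and the stromal progenitor gene Foxd1 at 7.46, 7.68 and 8.48 (all 3 chosen after their values were seen). Of the 9 mural and stromal genes 3 were higher in array 3 than the mean of arrays 1 and 2, 5 were equal and 1 was lower. The median difference was 0.0 log2. Of 5 epithelial markers 1 was above and 3 below (0 and 2 with the pooled spread). E-cadherin, Cdh1, was above at 6.67 ± 0.00, Epcam at 5.56 ± 0.00 and Cdh16 at 5.97 ± 0.25 were below, and Krt8 at 7.01 ± 0.42 was on neither side (SD, n = 3). Without array 1 or array 2 no epithelial marker was above, and 1 and 2 were below. The part of these cells in the signal of Vcam1, which mesenchymal cells can also express, was not tested.

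**Figure D4:**
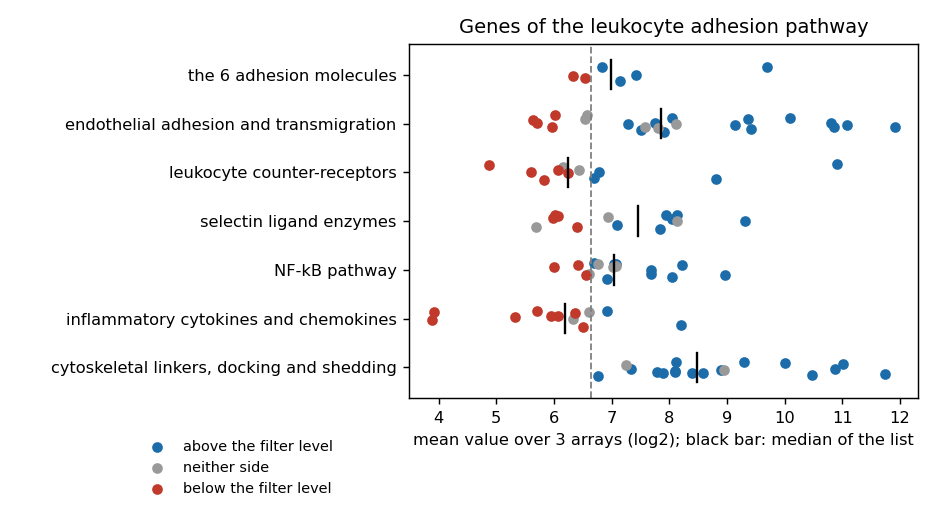
Mean log2 value over 3 arrays (x axis) of each gene in the set of 6 and in the lists of the leukocyte adhesion pathway, coloured by whether it was above the filter level, below it or on neither side, with the list median as a black bar and the level as a dashed line. The linker, docking and shedding genes have a median of 8.49, the cytokine and chemokine genes one of 6.19.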

How the data were processed

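The authors sorted GFP-positive cells from E15.5 kidneys, amplified the RNA in a single round with the WT-Ovation Pico system and hybridized 1 Affymetrix Mouse Gene 1.0 ST array per pool. The authors deposited log2 values per probe set. Affymetrix Expression Console is the tool in the submitters' processing notes, and how probes were summarized was not given in the sources used. RMA in GeneSpring is named for the study's own analysis. With 3 arrays, their number limits precision.

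Of 35557 probe sets 21789 had a single symbol in the platform annotation, 1621 had several and were not named, and 12147 were unnamed here. Symbols were updated by gene identifier in a RefSeq gene table (GRCm38.p6, names and gene order only), where 21698 matched. A gene's value is the mean of its probe sets. It was above the level if any probe set was and below only if all were. Selp, Nfkb1 and other list genes that no singly named probe set reads were not analysed here.

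The level test was an intercept-only limma 3.58.1 fit with eBayes in R 4.3.3 over all probe sets, with a threshold of 0.05. The study's between-group tests need more than 1 group. Ranks, distances and motif matches were computed in Python 3.11.15 with numpy 2.4.6 and pandas 2.3.3. Named were the 6 genes, the first 4 measured genes of each list, all counter-receptors and, for Icam2, the only one of the 6 to span at least 0.5 log2, the 3 genes nearest in deviation. Other genes named were chosen after their values were seen. The 6 genes and all lists were chosen with earlier results of these data known. Alternatives tried were other filter levels, normalizations and spreads, fewer probe sets, and each array left out.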

Additional observations from a re-analysis of the deposited data

How the results depend on the processing

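The direction from the filter level and the call of each adhesion gene were recomputed under 10 alternatives, which gave 39 results as reported, 15 with the direction kept but not past the threshold, and 6 reversed. With a filter level of 200 (7.64 log2), Icam1 was 0.22 log2 under it (-0.22), Vcam1 -0.50 and Madcam1 -0.80, and all 3 were called below (adjusted p = 0.0348, 0.0179 and 1.16e-05, limma), while with a level of 64 Sele was 0.54 log2 and Selplg 0.32 over it and both were called above. These reversals follow from moving the level. Icam2 was above under both. Against the 95th percentile of the receptor genes in each array, Sele was 0.08 over the level on neither side, Madcam1 (0.39) and Selplg (-0.13) were on neither side, and Icam1, Icam2 and Vcam1 stayed above. With the pooled spread the calls of Vcam1 (0.50), Madcam1 (0.20), Sele (-0.11) and Selplg (-0.32) were not past the threshold. Sele was not past it either with median-centred or quantile normalized arrays (-0.11 in both, adjusted p = 0.0559 and 0.112, limma).

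Leaving out each array in turn, the distance from the level was 0.72 to 0.81 for Icam1, 2.82 to 3.42 for Icam2, 0.40 to 0.55 for Vcam1 and -0.11 to -0.10 for Sele, and was 0.20 for Madcam1 and -0.32 for Selplg each time. Icam1 was not past the threshold without array 1 or 3, Icam2 and Vcam1 without array 1 or 2, and Sele without array 2 (adjusted p = 0.0546, limma). Without array 3 the SD was 0 for 50.6% of probe sets, so the calls of that fit are unreliable.

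Over all probe sets, 12629 were above and 14826 below. With a level of 200 the counts were 5510 and 22955, and with a level of 64 the count below was 8432. Without each array in turn, 7712 to 11688 were above and 8738 to 15179 below. With only probe sets of a single symbol, 8906 were below because fewer were tested. Of the counts of genes on each side of the level in the pathway and marker lists, 186 recomputed values were within 1.5 times the reported count and 94 were not. The list counts above the level were, over the fits that leave out an array, for the linker, docking and shedding genes 6 to 14 (16 with all arrays), for the endothelial adhesion genes 4 to 14 (13) and for the endothelial markers 1 to 8 (9). No paired analysis was possible because the series has 1 group.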
